A study of Mus musculus with 3 samples.

Results

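The genes described here are 53 genes of DNA replication and the cell cycle, taken by gene name from a list of known factors, with no limit on measured values in the rule. All 53 were on the array, out of 27745 gene names. They comprised 23 replication genes (10 of origin licensing, 10 of the replication fork and 3 of nucleotide supply), 20 genes of mitosis and cyclins (10 of each) and 10 regulators (4 kinases, 4 kinase inhibitors, Rb1 and E2f1). The array lists Cdk1 under its older name Cdc2a and Orc1 as Orc1l.

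The study asked how loss of Eif4g3, a translation initiation factor of the eIF4G family that bridges the cap-binding protein and the ribosome, changes which mRNAs ride on polysomes. BALB/c lymph node stromal cells, cultured in DMEM with 10% FCS, received 400 pmol of siRNA with Lipofectamine 2000, had fresh medium at 24 h and were harvested at 48 h. The 2 groups were Eif4g3 siRNA and control siRNA, each a pool of 7 plates that was separated on a sucrose gradient of 10% to 60% into a top fraction, a light polysome fraction and a heavy polysome fraction. For each fraction 200 ng of RNA per siRNA was compared on 1 array with 2 colours, Eif4g3 siRNA in Cy5 (red) and control siRNA in Cy3 (green). All 3 arrays ran in the same dye orientation and there was no replicate, so no test between conditions was possible. The labels name no animal, sex, age or passage.

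A cell licenses its origins in G1 by loading the Mcm2 to Mcm7 helicase with the help of Orc1, Cdc6 and Cdt1, and Gmnn (geminin) holds Cdt1 in check until the cell has divided. In S phase polymerases, the sliding clamp Pcna, its loader Rfc and the single-strand binder Rpa copy the DNA from nucleotides that ribonucleotide reductase and thymidylate synthase supply. Cyclins with their kinases drive each step, kinase inhibitors restrain them, and Rb1 holds back E2f1 until the cell commits to S phase. Replication genes are classic targets of E2F factors, while many mitotic genes carry a cell cycle homology region (CHR) in their promoters.

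These motifs differed in frequency between the replication and mitotic genes, and 6 promoters are printed because they hold them before the start site. RefSeq windows on GRCm38.p6, from 250 bases before to 50 bases after the start, matched 42 of the 53 members by current symbol. Mcm7, Ccnd3, Cdkn1a and Cdkn2c had 2 windows each, and a gene counted as holding a motif if any of its windows did. For Mcm7 only the window with a motif in the printed stretch is shown. The stretches below are the 200 bases before the start, 5′ to 3′ on the gene's strand, with capitals on the E2F-like motif (TTTCCCGC, TTTGGCGC, TTTCGCGC or TTTGCCGC, on either strand) and on the CHR (TTTGAA, on either strand). Mcm5 (chr8:75109309-75109508, plus strand), Mcm6 (chr1:128359706-128359905, minus strand) and Mcm7 (chr5:138171884-138172083, minus strand) encode helicase subunits. Pola1 (chrX:93632156-93632355, minus strand) encodes the catalytic subunit of the primase-linked polymerase. Top2a (chr11:99024190-99024389, minus strand) encodes the topoisomerase that untangles sister chromosomes. Cdk1 (chr10:69352913-69353112, minus strand) encodes the kinase that starts mitosis.
Mcm5: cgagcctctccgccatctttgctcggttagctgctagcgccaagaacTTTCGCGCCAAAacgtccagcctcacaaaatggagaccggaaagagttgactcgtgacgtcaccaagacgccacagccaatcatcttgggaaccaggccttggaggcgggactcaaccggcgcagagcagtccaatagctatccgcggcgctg
Mcm6: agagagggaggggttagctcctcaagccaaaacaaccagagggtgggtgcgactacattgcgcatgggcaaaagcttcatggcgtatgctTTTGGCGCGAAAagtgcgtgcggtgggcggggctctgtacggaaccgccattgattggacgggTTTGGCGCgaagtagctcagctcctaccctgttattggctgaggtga
Mcm7: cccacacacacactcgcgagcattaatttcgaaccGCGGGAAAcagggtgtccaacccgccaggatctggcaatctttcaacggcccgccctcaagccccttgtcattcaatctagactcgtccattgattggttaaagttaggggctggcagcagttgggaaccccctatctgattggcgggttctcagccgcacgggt
Pola1: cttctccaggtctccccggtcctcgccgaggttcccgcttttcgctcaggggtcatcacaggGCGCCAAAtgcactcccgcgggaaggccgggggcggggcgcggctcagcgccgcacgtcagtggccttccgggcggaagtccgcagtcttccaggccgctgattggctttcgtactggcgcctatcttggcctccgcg
Top2a: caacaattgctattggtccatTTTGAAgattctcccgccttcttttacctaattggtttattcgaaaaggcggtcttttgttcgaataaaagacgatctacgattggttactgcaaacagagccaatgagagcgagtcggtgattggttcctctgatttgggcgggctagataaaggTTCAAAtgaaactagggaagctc
Cdk1: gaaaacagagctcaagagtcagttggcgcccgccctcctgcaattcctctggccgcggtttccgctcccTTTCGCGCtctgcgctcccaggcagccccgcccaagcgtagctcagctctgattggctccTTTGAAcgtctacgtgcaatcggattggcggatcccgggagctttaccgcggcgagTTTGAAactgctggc
In Mcm5 a pair of E2F-like motifs on opposite strands overlap, starting 153 and 149 bases before the start. Mcm6 holds a similar overlapping pair, from 110 and 106 bases before the start, and another copy 47 bases before it. In Cdk1 an E2F-like motif 131 bases before the start is followed by copies of the CHR 71 and 15 bases before it.

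Over whole windows, an E2F-like motif was present in 10 of 19 replication genes with a window (52.6%), in 7 of 8 of origin licensing, in 0 of 15 of mitosis and cyclins and in 2 of 8 regulators, against 2.61% of all 27025 genes of the table. The CHR was present in 1 of 19 replication genes (Mcm2), in 7 of 15 of mitosis and cyclins (6 of 9 mitotic genes) and in 1 of 8 regulators, against 20.2% of all genes. The letters CCAAT, a common promoter box, were found in 30 of 42 members (71.4%) and in 41.1% of all genes. A start site that read C followed by 4 pyrimidines, the form found at many mRNAs of the translation machinery, occurred in 1 of 42 members (Cdkn2c), in 3.01% of all genes and in 13 of 58 ribosomal protein genes. A match here is a description of letters and not of a bound factor.

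The siRNA target was lower in the Eif4g3 siRNA channel of every fraction. In the top, light and heavy fractions the log2 ratio of Eif4g3, red over green, was -0.43 ± 0.16, -1.06 ± 0.16 and -1.77 ± 0.19. The error after ± is the scanner software's error for its own ratio, combined over the gene's spots and probes, here and below. The ratios themselves were recomputed from the signals. That error covers spot noise and not biological spread, and it shrinks as more spots or probes are averaged. Spots of repeated probes had a median SD of 0.05, 0.05 and 0.09 in the recomputed log2 ratio of the top, light and heavy fractions. Of fibroblastic stromal markers, 12, 12 and 13 of 15 were measured in the top, light and heavy fractions, while the lymph node chemokines Ccl21c and Cxcl13 stayed at background. Endothelial markers were measured for 0, 2 and 3 of 8 genes, leukocyte markers for 2, 5 and 5 of 11 and epithelial and muscle markers for 2, 4 and 4 of 10. Summed over the fibroblastic list, control signal was 319568, 468137 and 574260 in the top, light and heavy fractions and Eif4g3 siRNA signal was 247676, 494727 and 449402. Summed over the leukocyte list, control signal was 626, 2295 and 2438 and Eif4g3 siRNA signal was 517, 2492 and 2894. Summed over the epithelial and muscle list, control signal was 89885, 171030 and 221605 and Eif4g3 siRNA signal was 77634, 215744 and 213251. Nearly all of it came from Acta2, the smooth muscle actin that cultured fibroblasts also express. The epithelial markers Cdh1, Tacstd1, Krt5, Krt8 and Krt14 were not measured in any fraction. Krt18 was measured in light and heavy polysomes, with control signals of 25 and 45 and Eif4g3 siRNA signals of 77 and 95. The measured genes of that list had a median log2 ratio of 0.36 in light polysomes, with 4 of 4 above 0. In heavy minus light their median was -0.14, with 3 of 4 below 0. The fibroblastic markers had a median of -0.13 in the top fraction, with 11 of 12 below 0. Their medians were 0.01 in light and -0.11 in heavy polysomes, and -0.21 in heavy minus light, with 8 of 12 below 0. The part of these markers in the results below was not tested.

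A gene was counted as measured where its probes were well above background in both channels. On that rule 47, 52 and 53 of the 53 genes were measured in the top, light and heavy fractions. Cdc6, Orc1l, Rfc3, Bub1b, Cdk2 and Cdkn1c were not measured in the top fraction, and Cdk2 was not measured in the light fraction either. The measured members were bright, with a median signal at the 69.5th, 76.3rd and 79.8th percentile of measured genes in the top, light and heavy fractions. A gene was called at a 2-fold ratio, which is a log2 value of 1 or -1. This limit was passed by 0.695% of 10942 measured genes in the top fraction, 0.688% of 14094 in light polysomes and 0.812% of 14404 in heavy polysomes. For the differences of log2 ratios between fractions, computed on probes measured in both, the shares were 1.51% for heavy minus top, 0.731% for heavy minus light and 1.06% for light minus top.

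Few members reached 2-fold. Cdk6 was past it in the top fraction (1 of 47, or 2.13%), no member was in light polysomes (0 of 52) and Ccng2 was in heavy polysomes (1 of 53). Between fractions, Mcm7 and Ccng2 were past it in heavy minus top (2 of 47), and no member was in heavy minus light or light minus top. At 1.5-fold, 3, 10 and 5 members were past the limit in the top, light and heavy fractions, where the shares of all genes were 5.28%, 6.11% and 7.23%. In the differences 7 members passed in heavy minus top, 12 in heavy minus light and 10 in light minus top, beside 13.4%, 8.52% and 8.97% of all genes. The 12 members in heavy minus light made 23.1% of 52, and 11 of them were lower in heavy, 8 of those being replication genes. Over all genes past 1.5-fold in heavy minus light, 799 were lower and 367 higher (68.5% lower).

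**Figure D1:**
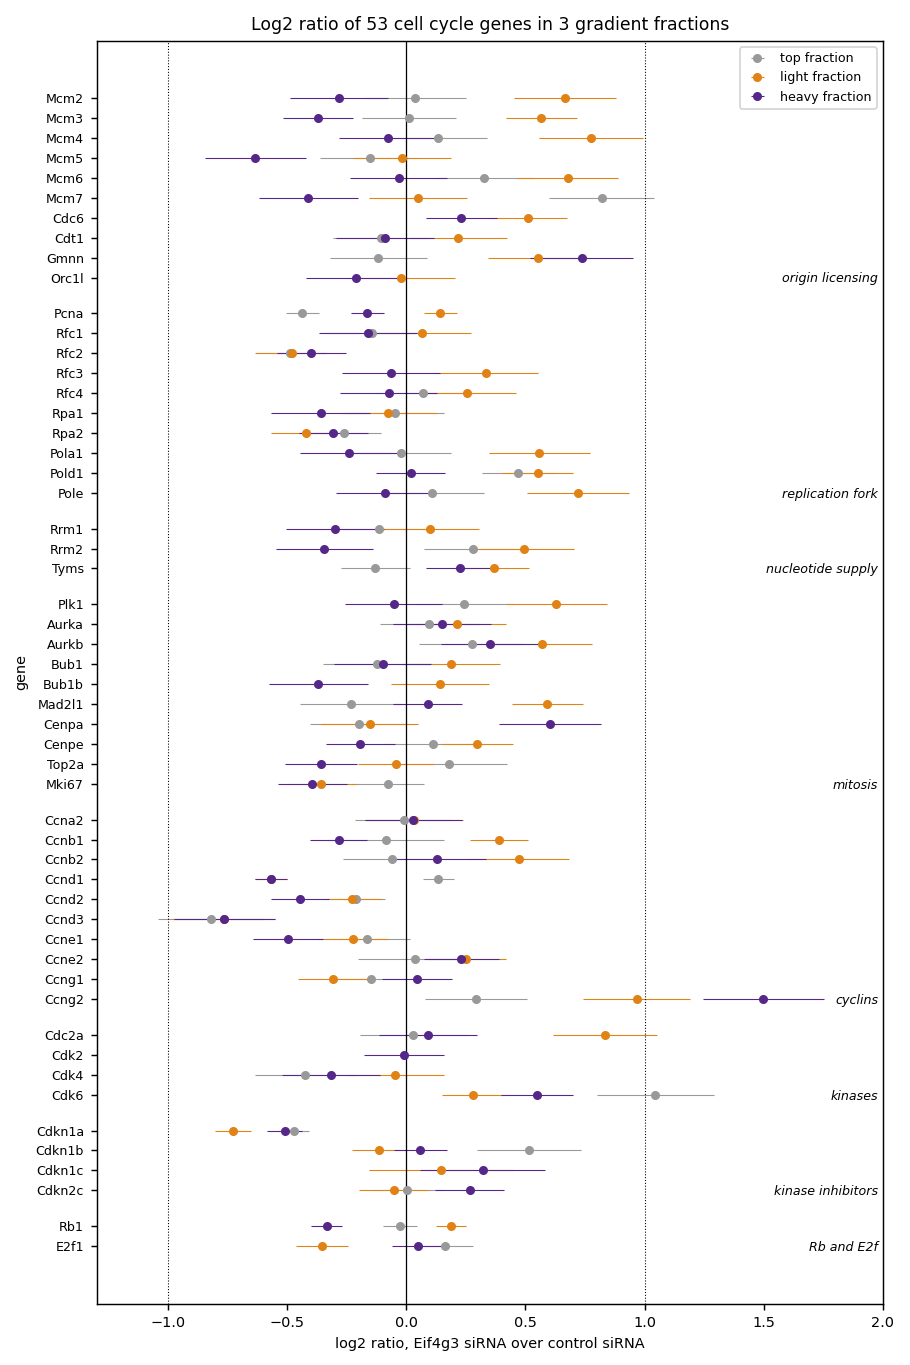
Log2 ratio, Eif4g3 siRNA to control siRNA (horizontal axis), for each of the 53 genes (rows, by role) in the top (grey), light (orange) and heavy (purple) fraction. Bars are the software's spot error and dotted lines mark 2-fold; the orange points of most replication genes lie to the right of the purple ones.

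Replication genes had higher ratios in the light fraction and lower ones in the heavy fraction. Their median log2 ratio in top, light and heavy was -0.03 (20 genes), 0.33 and -0.16 (23 genes each), where the median of all measured genes was 0.00, 0.02 and -0.01. In the light fraction 18 of 23 lay above 0, and in the heavy fraction 19 of 23 lay below 0. Of all measured genes, 52.6% lay above 0 in light and 48.3% in heavy. In heavy minus light 47.1% of them lay above 0, and in heavy minus top 49.9%. In heavy minus light the median was -0.40, and 20 of 23 lay below 0. Of the 20 replication genes measured in all fractions, 15 had their highest ratio in the light fraction (75%), against 31.2% of 10657 genes.

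Of the helicase subunits, Mcm2, Mcm3, Mcm4 and Mcm6 were above 0 in the light and below 0 in the heavy fraction. Mcm5 and Mcm7 had light ratios near 0, at -0.02 and 0.05. Over Mcm2 to Mcm7 the median log2 difference of heavy minus light was -0.78, with all 6 below 0. Mcm2 had log2 ratios of 0.04 ± 0.21, 0.67 ± 0.21 and -0.28 ± 0.21 in top, light and heavy. Mcm3 had 0.01 ± 0.20, 0.57 ± 0.15 and -0.37 ± 0.15, and Mcm4 had 0.13 ± 0.21, 0.78 ± 0.22 and -0.08 ± 0.20, in the same order. For these 3 subunits the light ratio stood above both other ratios by more than the spot error of either. Mcm6 had 0.33 ± 0.21, 0.68 ± 0.21 and -0.03 ± 0.20 in the top, light and heavy fractions. Mcm5 had -0.15 ± 0.21, -0.02 ± 0.20 and -0.63 ± 0.21, of which only the heavy ratio was beyond its spot error from 0. Heavy minus light was -0.95 ± 0.30 for Mcm2, -0.94 ± 0.21 for Mcm3, -0.85 ± 0.30 for Mcm4, -0.71 ± 0.29 for Mcm6 and -0.61 ± 0.29 for Mcm5. Mcm3 was read by 2 probes, which gave -0.91 and -0.96, and each other subunit by 1 measured probe.

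In linear signal, Mcm2 control values were 410, 2098 and 5862 in the top, light and heavy fractions, and Eif4g3 siRNA values were 446, 3271 and 4719. Signals are the software's processed values per channel and were not scaled between arrays, so they are set side by side within a fraction only. Mcm2 signal was the higher with Eif4g3 siRNA in light polysomes and the lower in heavy polysomes. For Mcm4, control signal was 2898, 13051 and 30245 and Eif4g3 siRNA signal was 3345, 23299 and 28528.

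Mcm7 differed from the other subunits in the top fraction. Its control signal was 7462, 8038 and 13606 and its Eif4g3 siRNA signal was 13880, 8340 and 9939 in the top, light and heavy fractions. The log2 ratios were 0.82 ± 0.22, 0.05 ± 0.20 and -0.41 ± 0.21, falling from top to heavy. Heavy minus top was -1.23 ± 0.30, a 2.35-fold difference and the lowest among the 47 members measured in both. It passed 2-fold in all 7 alternative treatments of the data, between -2.14 and -1.23, where the lowest value, without loess, was -1.27 relative to the median of all genes. The gene was read by 1 probe, at chr5:138394485-138394544 on the minus strand of mm8, the build of the files. Heavy minus light was -0.46 ± 0.29, below 0 as for the other subunits.

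**Figure D2:**
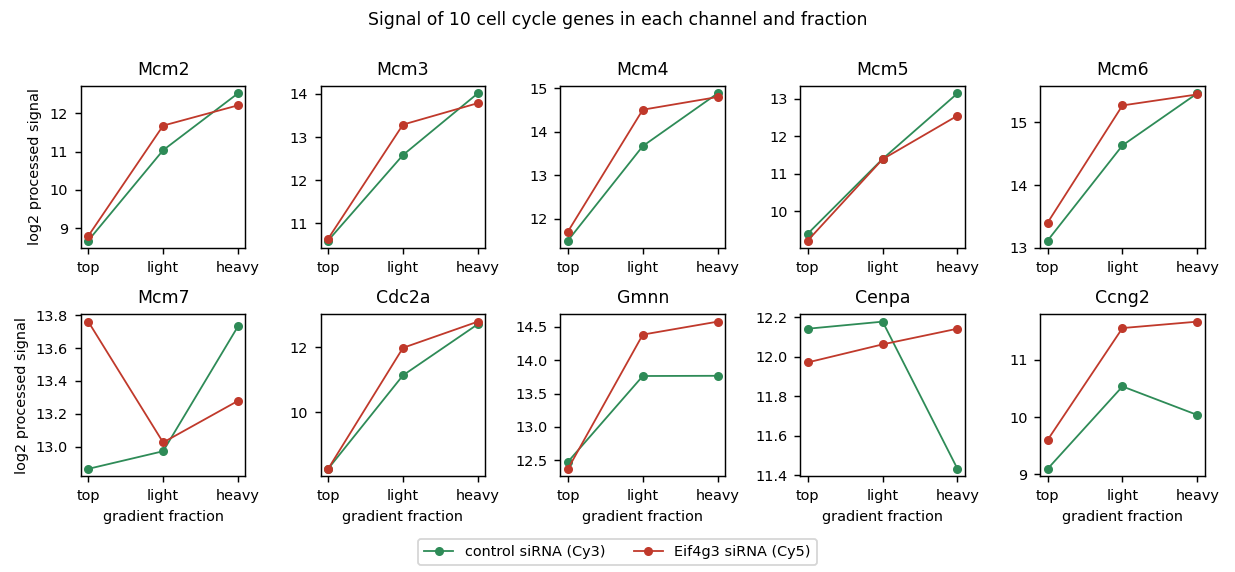
Log2 processed signal (vertical axis, scaled per gene) in the top, light and heavy fraction for control siRNA (green) and Eif4g3 siRNA (red), 1 array per fraction. For Mcm2, Mcm3 and Mcm4 the red line is above the green one in light and below it in heavy; Mcm7 starts higher in red in the top fraction, and Ccng2 is higher in red in all 3.

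The other licensing factors were mixed. Gmnn, the inhibitor of Cdt1, had log2 ratios of -0.12 ± 0.20, 0.55 ± 0.21 and 0.74 ± 0.22 in the top, light and heavy fractions. Its heavy minus top of 0.85 ± 0.30 was the highest of the replication genes, and its heavy ratio was the opposite in sign to those of all 6 Mcm subunits. Cdt1 had -0.10, 0.22 and -0.09, within about its spot error of 0.20 throughout. Cdc6, measured in the light and heavy fractions only, had 0.51 ± 0.16 and 0.23 ± 0.15, but its 2 probes gave 0.53 and -0.07 in the heavy fraction. Orc1l had -0.02 and -0.21 there.

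Of the 10 fork genes, 7 were above 0 in the light and 9 were below 0 in the heavy fraction, with medians of 0.20 and -0.16. The polymerase genes had the widest gap. Pole, the leading-strand polymerase, had log2 ratios of 0.11, 0.72 and -0.09 in the top, light and heavy fractions, and Pola1 had -0.02, 0.56 and -0.24. Heavy minus light was -0.81 ± 0.30 for Pole, -0.80 ± 0.29 for Pola1 and -0.53 for Pold1, the lagging-strand polymerase. Pcna, the sliding clamp, had -0.44 ± 0.07, 0.14 ± 0.07 and -0.16 ± 0.07. Its lowest ratio was thus in the top fraction. Rfc2, a clamp loader subunit, and Rpa2, a subunit of the single-strand binder, were below 0 in all fractions, at -0.49, -0.48 and -0.40 for Rfc2 and -0.26, -0.42 and -0.31 for Rpa2. The loader subunits Rfc1, Rfc3 and Rfc4 had heavy minus light of -0.23, -0.40 and -0.33.

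The nucleotide supply genes were all above 0 in the light fraction. Rrm2, the S-phase subunit of ribonucleotide reductase, had 0.28 ± 0.21, 0.49 ± 0.21 and -0.34 ± 0.20 in the top, light and heavy fractions, with heavy minus top of -0.62 ± 0.29 and heavy minus light of -0.84 ± 0.29. Rrm1, the larger subunit, had -0.12, 0.10 and -0.30. Tyms, thymidylate synthase, had -0.13 ± 0.14, 0.37 ± 0.15 and 0.23 ± 0.14, and its heavy minus top of 0.36 ± 0.20 was the second highest of the replication genes after Gmnn.

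Mitosis and cyclin genes as 1 group showed a smaller shift of the same sign in heavy minus light, with a lower median in the mitotic genes. Their median log2 ratios in top, light and heavy were -0.06, 0.16 and -0.08. In heavy minus light the median was -0.22 with 16 of 20 below 0. It was -0.30 for the 10 mitotic genes (9 below 0) and -0.01 for the 10 cyclins (7 below 0), where all genes had -0.02. In heavy minus top the median of both together was 0.04 with 8 of 19 below 0. Replication minus mitosis and cyclins, as a difference of medians, was 0.17 in the light fraction, -0.18 in heavy minus light and -0.24 in heavy minus top. That difference kept its sign in all 7 alternatives, between 0.09 and 0.30, between -0.27 and -0.12 and between -0.25 and -0.12. The groups overlapped in every comparison, and with 1 array per fraction the difference has no replicate error.

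**Figure D3:**
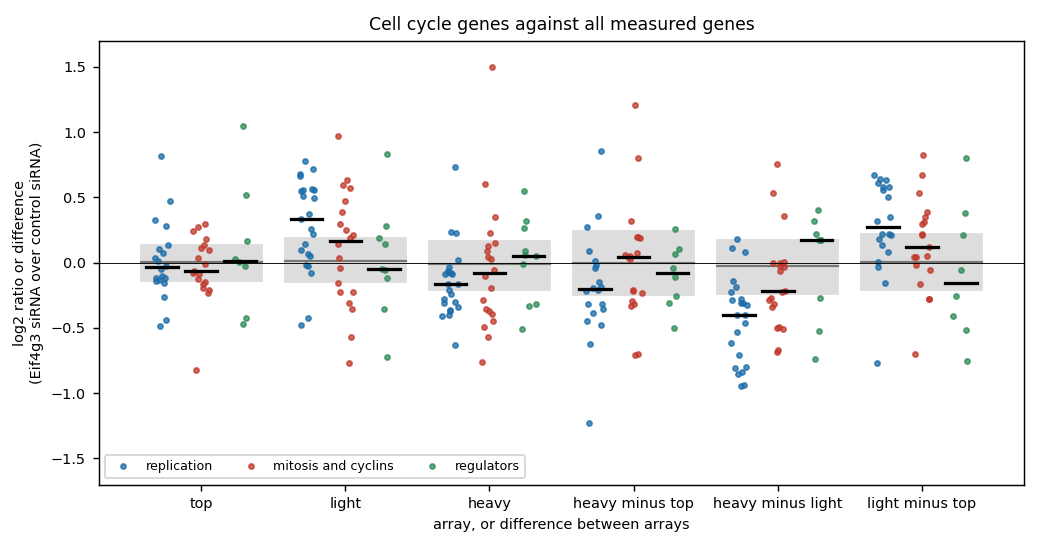
Log2 ratios on the 3 arrays and their differences (vertical axis) for replication genes (blue), mitosis and cyclins (red) and regulators (green), each point a gene and each black bar the group's median. Grey boxes are the quartiles of all measured genes; the blue median is above the box in light and light minus top and below it in heavy minus light.

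Of the 10 mitotic genes, 9 had a heavy minus light below 0, and Cenpa was the other one. Plk1, a mitotic kinase, had log2 ratios of 0.24 ± 0.21, 0.63 ± 0.21 and -0.05 ± 0.20 in the top, light and heavy fractions, and Mad2l1, of the spindle checkpoint, had -0.23 ± 0.22, 0.59 ± 0.15 and 0.09 ± 0.14. Cenpe, a kinetochore motor, and Bub1b, a checkpoint kinase, had heavy minus light of -0.49 and -0.51. Aurkb, the centromere kinase, was above 0 throughout at 0.27, 0.57 and 0.35. Bub1 and Aurka lay between -0.12 and 0.21 in every fraction.

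Cenpa, the histone H3 variant of centromeres, had log2 ratios of -0.20 ± 0.20, -0.15 ± 0.20 and 0.60 ± 0.21 in the top, light and heavy fractions. Control signal was 4518, 4632 and 2765 and Eif4g3 siRNA signal 4015, 4278 and 4519. Heavy minus light was 0.76 ± 0.30, the highest of the 52 members measured in both, and heavy minus top was 0.80 ± 0.30. Top2a had 0.18 ± 0.24, -0.04 ± 0.16 and -0.36 ± 0.15, with heavy minus top of -0.70 ± 0.32 on 1 probe. Mki67, the proliferation antigen, had -0.08, -0.36 and -0.39.

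The cyclins differed among themselves, also within a class. Ccng2, a cyclin raised in arrested cells, had control signals of 547, 1485 and 1051 and Eif4g3 siRNA signals of 776, 3015 and 3258 in the top, light and heavy fractions. The log2 ratios were 0.29 ± 0.21, 0.97 ± 0.22 and 1.5 ± 0.25, the heavy one being 2.82-fold and the highest of all members in any fraction. Heavy minus top was 1.21 ± 0.33. Without loess, the intensity-dependent dye correction, the heavy ratio was 0.52 and heavy minus top 0.19, both short of 2-fold, while the other 6 alternatives left both past it. Relative to the median of all genes without loess, which was -0.73 in heavy and -0.87 in heavy minus top, these values were 1.25 and 1.06. The 1 probe lies at chr5:94351052-94351111 on the plus strand of mm8. Ccng1, its relative, had -0.15, -0.31 and 0.05, as means of 2 probes that gave 0.27 and -0.57 in the top fraction.

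The D-type cyclins, which couple growth signals to entry into the cycle, were below 0 in both polysome fractions. Ccnd3 was at -0.82 ± 0.22, -0.77 ± 0.21 and -0.76 ± 0.21 in the top, light and heavy fractions, past 1.5-fold in all 3 and without a difference between them beyond 0.06. Its control signal was 2844, 11417 and 9602 and its Eif4g3 siRNA signal 1474, 6942 and 6092. Ccnd1 had 0.13 ± 0.06, -0.57 ± 0.07 and -0.57 ± 0.07, with the lower ratio in both polysome fractions and heavy minus top of -0.70 ± 0.09. Ccnd2 had -0.21, -0.23 and -0.45, and its 3 probes spanned 0.72 in heavy minus light. In pooled cells a change in the amount of an mRNA and a change in the share of cells that express it cannot be told apart, and without an array of unfractionated RNA neither can be separated from a move between fractions on 1 array alone.

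Among S-phase and mitotic cyclins, Ccnb1 and Ccnb2 had light ratios of 0.39 ± 0.12 and 0.47 ± 0.21 and heavy ratios of -0.28 ± 0.12 and 0.13 ± 0.20. The 3 probes of Ccnb1 gave heavy minus light between -0.73 and -0.56. Ccna2 stayed between -0.01 and 0.03. Of the E-type cyclins, Ccne1 had a heavy ratio of -0.50 and Ccne2 of 0.23.

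Regulators as a group lay near 0, with median log2 ratios of 0.02, -0.05 and 0.05 in the top, light and heavy fractions. In heavy minus light their median was 0.17 with 6 of 9 above 0, the opposite sign to the replication genes. Relative to all genes it was 0.20, and without loess that value turned to -0.02. Cdc2a, the mitotic kinase, had the highest light ratio of the regulators. It had log2 ratios of 0.03 ± 0.22, 0.83 ± 0.22 and 0.09 ± 0.20, from control signals of 304, 2255 and 6750 and Eif4g3 siRNA signals of 304, 4064 and 7128. Its heavy minus light was -0.74 ± 0.30, with the light ratio the highest of the 3, as for Mcm2 and Mcm4. Cdk4, a partner of the D-type cyclins, had -0.42 ± 0.21, -0.05 ± 0.20 and -0.32 ± 0.21.

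Cdk6, the other partner of those cyclins, was at 1.04 ± 0.25 in the top fraction, a 2.06-fold ratio. This rests on 1 of 3 probes, at chr5:3535293-3535352 on the plus strand of mm8, which was the only one above background there and gave 0.63 in light and 0.79 in heavy polysomes. The probes of the reference transcript gave 0.10 and 0.11 in the light fraction, and with all probes kept the top value was 0.32. Cdk2, measured in the heavy fraction only, was at -0.01.

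The 4 kinase inhibitors all had heavy minus light above 0, with a median of 0.20 and a range of 0.17 to 0.32. The values were 0.22 ± 0.11 for Cdkn1a, 0.17 ± 0.16 for Cdkn1b, 0.17 ± 0.40 for Cdkn1c and 0.32 ± 0.20 for Cdkn2c. Cdkn1c was read by 1 probe of low signal, with control values of 39 in light and 43 in heavy polysomes. Cdkn1a (p21), an inhibitor induced by p53, was low throughout at -0.47 ± 0.07, -0.73 ± 0.08 and -0.51 ± 0.07 in the top, light and heavy fractions, from control signals of 3221, 6800 and 7027. Cdkn1b (p27) had 0.51 ± 0.22, -0.11 ± 0.11 and 0.06 ± 0.11, the top value from 1 probe. Cdkn2c (p18) had 0.00, -0.05 and 0.27, with heavy minus top of 0.26 ± 0.21. Rb1 had -0.03 ± 0.07, 0.19 ± 0.06 and -0.33 ± 0.07, a heavy minus light of -0.52 ± 0.09. E2f1 had 0.16, -0.35 and 0.05, but its 2 probes were opposite in sign in the top and heavy fractions.

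The place of an mRNA in the gradient went along with its heavy minus light value across the whole array. For the signal of a single channel between fractions, the mean signal of both channels was quantile scaled between arrays, and green was derived from that mean and the ratio. In control cells the median signal of replication genes was then 0.73 higher on the log2 scale in heavy than in light. For mitosis and cyclins the gap was 0.47, for regulators 0.01 and for all genes 0.04. In Eif4g3 siRNA cells the gap was 0.25 for replication genes, 0.16 for mitosis and cyclins, 0.13 for regulators and 0.01 for all genes. Both values enter heavy minus light, so the mean signal of both channels, heavy over light, was set against it. For this step the mean was not quantile scaled but only centred on the median of all genes. It is built from the same red and green signals as heavy minus light, so the pair is not independent. The line below and the distances from it share that limit. Pearson's r was -0.74 over 13688 genes and -0.79 over 52 members, as a description across genes that share the same arrays. A straight line through all genes had a slope of -0.49.

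**Figure D4:**
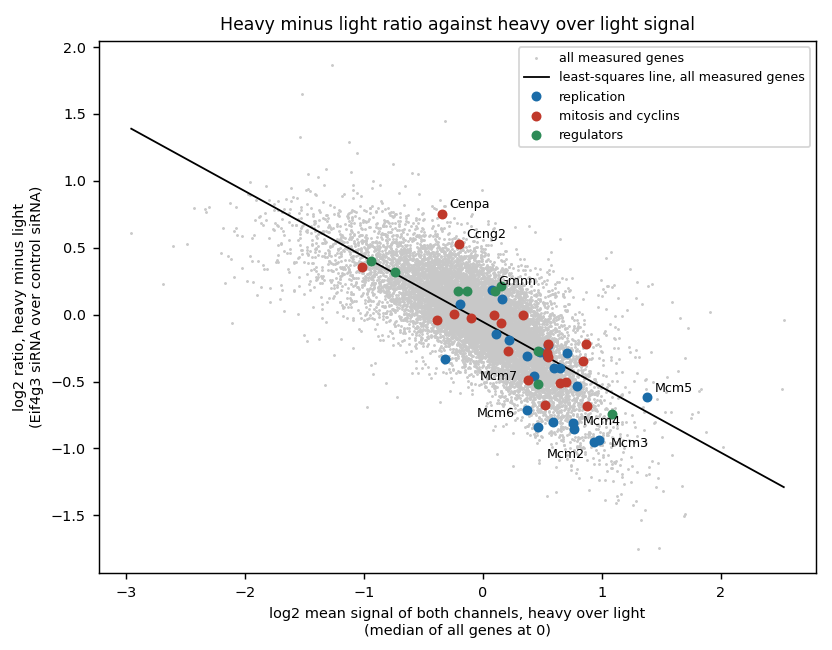
Heavy minus light log2 ratio (vertical axis) against the log2 mean signal of both channels in heavy over light (horizontal axis, median of all genes at 0). Grey points are 13688 measured genes with their least-squares line, and coloured points are the members; Mcm2, Mcm3, Mcm4 and Mcm6 lie below the line, Mcm5 above it, and Cenpa and Ccng2 farthest above.

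On that line the replication genes would have had a median of -0.32, and their median distance from it was -0.05, with 15 of 23 below. Mitosis and cyclins had a median distance of 0.00 with 10 of 20 below. The low median of the replication genes in heavy minus light was thus close to the line for mRNAs of like heavy over light signal. Without loess the median distance was -0.45 for replication and -0.31 for mitosis and cyclins. The helicase subunits lay lower than the line. Their median distance was -0.42, and 5 of 6 were below, at -0.44 for Mcm2, -0.40 for Mcm3, -0.43 for Mcm4, -0.47 for Mcm6 and -0.20 for Mcm7, with Mcm5 at 0.11. Without loess the median of the 6 was -0.68. Rrm2 and Pola1 were at -0.56 and -0.46. Cenpa and Ccng2 lay above it by 0.64 and 0.48, where the SD of the distance over all genes was 0.23. The line was chosen after the values were seen.

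The 10 replication genes with an E2F-like motif had a median heavy minus light of -0.50, between -0.94 and -0.19. Mcm5, Mcm6, Mcm7 and Pola1, whose promoters are printed, are among them. The 9 without had a median of -0.31, between -0.95 and 0.12, so the groups overlapped. Mcm4, Pole, Gmnn and Rfc2, at -0.85, -0.81, 0.18 and 0.08, had no window and were left out. A link of the motif to these values was not tested. Mcm2, which had the lowest value, had no E2F-like motif in its window.

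Other genes of the same pathways, from lists of 37 replication, 48 mitosis and 38 regulator genes outside the 53, were also summarised. The other replication genes had median log2 ratios of 0.18 in the light (29 of 36 above 0) and -0.01 in the heavy fraction, and their heavy minus light was -0.17 with 24 of 36 below 0. The other mitosis genes, a list without cyclins, had 0.26 in the light fraction (37 of 47 above 0). Their heavy minus light was -0.22 with 37 of 47 below 0, where the mitotic members had -0.30 and mitosis and cyclin members together -0.22. The other regulators, a list that includes some cyclins, had 0.11 in the light fraction. Their heavy minus light was -0.03 with 21 of 37 below 0, where the regulator members, without cyclins, had 0.17. In heavy minus top, however, the other replication genes had a median of 0.10, opposite in sign to the -0.20 of the 20 replication members. Past 2-fold in heavy minus top was Rpa3, the smallest Rpa subunit, at 1.23 ± 0.31 (1 of 29), from ratios of -0.72, 0.22 and 0.51 in the top, light and heavy fractions. Prc1, a spindle midzone protein, was past it in heavy minus light at -1.15 ± 0.30, with 0.15, 0.90 and -0.25, and is named because its value was seen to pass.

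Probes of the same gene differed by a median SD of 0.11, 0.16 and 0.15 log2 in the top, light and heavy fractions. Of members with several measured probes, 5 of 13, 3 of 19 and 5 of 20 had probes of opposite sign in these fractions. On the array 27 of the 53 members had a single probe.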

How the data were processed

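Red and green signals were read from 3 Agilent whole mouse genome arrays, 1 per gradient fraction. Per the file headers, Feature Extraction 10.5.1.1 wrote for every spot a linear intensity of each channel, flags, and a log10 ratio with its error. Log2 ratios deposited by the authors as a value table matched that log10 ratio after conversion, to within 3.53e-06 log2, which settles scale and direction. Their column medians are -0.09, -0.01 and 0.22, and any further centring by the authors is unknown.

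Ratios were recomputed with limma 3.58.1 in R 4.3.3, with normexp background correction at an offset of 50 and loess within each array, control spots at weight 0. These ratios lie closer to 0 than the software's, with slopes on them of 0.58, 0.72 and 0.72 in top, light and heavy. Outlier spots (220, 170 and 183) were left out, and no spot was saturated. Spots of a probe were averaged, and a probe counted where at least 0.5 of its spots were well above background in both channels. A gene is the mean of its measured probes, and a difference uses probes measured on both arrays. Control signals between fractions were scaled by Aquantile. Simulated data served to test these steps.

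With 1 array per fraction there is no test, and precision is limited by the number of arrays. Dye and siRNA cannot be told apart, and all arrays were on 1 slide in 1 scan. Members and lists were chosen with earlier results of these data known. Full values go to members past 2-fold, the 2 highest and 2 lowest of each group in heavy minus top, and any named for a role. Of 27745 gene names, current symbols came from a GRCm38.p6 table, used for names only. Alternatives varied the offset, loess, ratio source, background filter, probe choice, outlier spots and fold limit.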

Additional observations from a re-analysis of the deposited data

How the results depend on the processing

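No paired analysis was possible because each fraction has 1 array and the labels carry no replicate numbers, and no array could be left out. Without loess, the median of all genes moved to 0.62 in light, -0.73 in heavy, -0.87 in heavy minus top, -1.47 in heavy minus light and 0.72 in light minus top. The count of members past 2-fold then became 21, 26, 26, 48 and 23 in that order, where all measured genes had 2506 calls higher and 1 lower in light and 0 higher and 3810 lower in heavy, against 56 and 41 and 73 and 44 with loess. The medians without loess were 1.11, -1.06, -1.14, -2.15 and 1.13 for replication, 0.82, -0.95, -0.93, -1.88 and 0.93 for mitosis and cyclins, and 0.78, -0.69, -0.96, -1.49 and 0.66 for regulators. Relative to all genes, replication was then at 0.50 in light and -0.68 in heavy minus light, on the same side as with loess (0.32 and -0.38), while regulators in heavy minus light turned from 0.20 to -0.02. At 1.5-fold the counts were 3, 10, 5, 7, 12 and 10 in top, light, heavy, heavy minus top, heavy minus light and light minus top. At 2-fold the main counts were 1 in top, 0 in light and 0 in light minus top. At that limit the software's ratio gave 1 member in light and 2 in light minus top. Offset 0 gave 2 in light minus top, and no background filter gave 0 in top. Bright probes moved the median of regulators to 0.20 in top and -0.33 in light minus top, and the count of mitosis and cyclin genes highest in light from 10 of 19 to 6 of 13. Without Aquantile, the median control signal of mitosis and cyclins, light over top, was -0.076, where it was 0.398 with Aquantile. Replication genes highest in light numbered 13 to 18 over the 7 alternatives (70% to 90% of the 17, 20 or 23 genes measured). The 90% was without loess, where 49.8% of all measured genes were highest in light. In the other alternatives the share of all genes was 25.5% to 32.3%. The distance of Mcm2 to Mcm7 from the line, tried in 6 alternatives added after seeing the data, was -0.68 to -0.37.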
